A study of Drosophila melanogaster with 6 samples.

Results

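The genes described here are those whose RNA in larvae of the C2 strain of Drosophila melanogaster stood at least 2-fold above, or at least 2-fold below, its level in both the C1 and the C5 strain. The table held 16196 genes. Those with an average over the C1, C2 and C5 libraries of 1 CPM or more (counts per 1000000 counts, scaled by TMM factors) were called measured, 9970 in number. Of these, 399 were higher in C2 than in both (4.00%) and 335 were lower than in both (3.36%), 734 genes in all (7.36%). The genes were chosen by these same fold changes, so the counts and folds below are a description and carry no test. Where 3 values follow a gene without more words, they are its CPM in C2, C1 and C5, in that order. Each strain had 1 library. C1 and C5 were set beside each other because their libraries lie close in these data, and the 2 were never averaged. A difference below is therefore a difference between libraries, with no replicate check, and the intervals cover counting error only.

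RNA was taken from whole larvae at the 3rd instar, 4 days after egg laying, and ribosomal RNA was removed before sequencing. The C1, C2 and C5 larvae carried Tubulin Gal-4 (spelled Tublin Gal4 in the genotypes), a driver active in nearly all cells, with UAS-C1, UAS-C2 or UAS-C5, which are newt (Notophthalmus viridescens) genes put into the fly genome by phiC31 integration. C3 and C4 larvae carried the same driver with UAS-C3 or UAS-C4, and the control larvae, titled Wild Type, carried Tubulin Gal-4/S-T, so the driver was shared by all 6 libraries and no library came from larvae without it. How many larvae a library holds, and what the newt proteins are, is not stated in those sources.

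The libraries held 75070322 (C2), 86894127 (C1) and 82953889 (C5) counts on genes. The 10 most abundant genes took 19.0%, 16.1% and 18.7% of them. The 9 testis markers found in the table summed to 5.70 CPM in C2, 11.0 in C1 and 6.40 in C5, against 1148 in the control and 2455 in C4, and dj, a sperm tail gene, had 0 counts in C1 and C2 and 1 in C5. Markers of muscle, epidermis, salivary gland, fat body, midgut, haemocytes, Malpighian tubules, ring gland, neurons and imaginal discs were all detected in these 3 libraries. The 5 larval muscle markers summed to 16283 CPM in C2, 4036 in C1 and 4839 in C5, and the 3 epidermis markers to 28555, 3419 and 9803. The 5 fat body markers summed to 117604, 106174 and 122742 CPM and the 4 midgut markers to 682, 1183 and 1039. What part the make-up of the larvae had in the results was not tested. Against C1 alone C2 was at least 2-fold higher for 611 genes (6.13%) and lower for 601 (6.03%), and against C5 alone for 575 (5.77%) and 439 (4.40%). C1 and C5 differed at least 2-fold from each other in 388 genes (3.89%), and the median log2 ratio over all measured genes was 0.02 for C2 to C1 and 0.01 for C2 to C5.

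The 3rd instar is the last larval stage. Larvae feed, stop feeding, wander and form a puparium, and pulses of the steroid 20-hydroxyecdysone drive the passage from one to the next through a cascade of nuclear receptors. Salivary glands switch from early gland genes to glue genes and then to late genes, the epidermis changes its cuticle proteins and tans the puparium, and larval muscle and gut are later broken down. Most sarcomere and cuticle protein genes among those chosen here were higher in C2, with Act88F, Cpr47Ee and Cpr49Ag lower, while several tanning, ecdysone response and peptidoglycan recognition genes were lower. Lists of known function, 35 in number, held 84 of the 399 higher genes (21.1%) and 46 of the 335 lower ones (13.7%), against 7.54% of all measured genes. The lists were chosen with earlier results of these data known, so these shares may partly reflect that choice and carry no test.

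**Figure D1:**
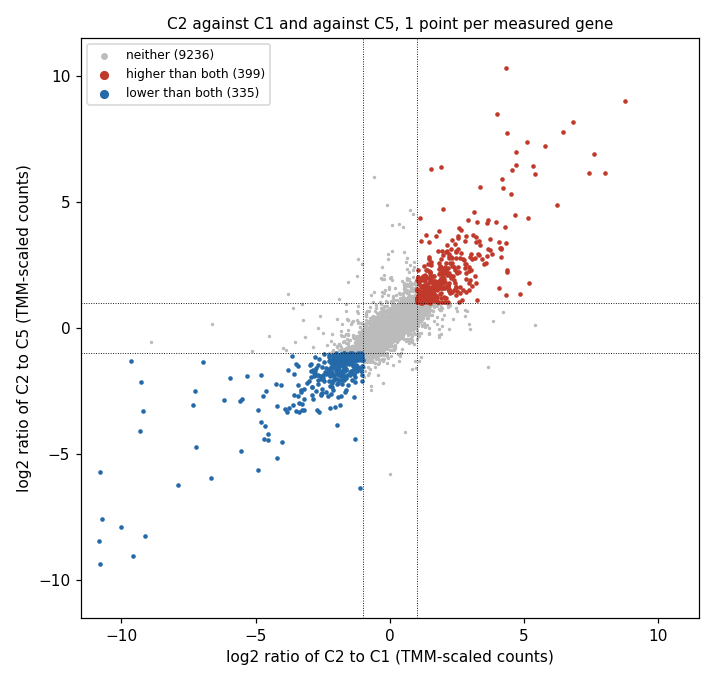
Each point is 1 of the 9970 measured genes, placed by the log2 ratio of C2 to C1 (horizontal) and of C2 to C5 (vertical). Dotted lines mark 2-fold, and the 399 genes higher than both (red) and 335 lower than both (blue) occupy the upper right and lower left corners by construction.

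Most of the differences were modest. Among the higher genes 285 lay between 2-fold and 4-fold and 42 were at least 8-fold above both, and among the lower genes 255 lay between 2-fold and 4-fold and 33 were at least 8-fold below both, each by the smaller of the 2 ratios. C1 and C5 lay within 2-fold of each other for 333 of the 399 and 279 of the 335. The exact 95% intervals of both ratios excluded 1 for 732 of the 734 genes. Without the minimum of 1 CPM, 771 genes were higher and 491 lower. Of the 399 higher genes 52 had less than 1 CPM in both C1 and C5 and were measured only through their level in C2, and 69 of the 335 lower genes had less than 1 CPM in C2. Higher genes under 1 CPM in only 1 of C1 and C5, such as Cpr100A, can also have been measured only through C2. They are not among the 52. At the edge of the size rule, Actn (log2 1.0004 against C5) and ps (1.001 against C1) were just inside on the high side and Nepl15 (0.99) and CG8206 (0.99) just outside. On the low side CG32354 (-1.003) and Kul (-1.006) were just inside and mthl5 (-0.997) and CG17036 (-0.997) just outside.

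As a set, the higher genes took 8.59% of the C2 counts, 2.12% of those of C1 and 2.86% of those of C5. The lower genes took 1.22% of the C2 counts, 5.80% in C1 and 3.87% in C5. Genes known only by a CG or CR number made up 210 of the 399 (52.6%) and 182 of the 335 (54.3%), against 36.2% of all measured genes. The X chromosome held 49 genes of each set (12.3% and 14.6%), against 16.0% of all measured genes, and 378 and 325 genes were protein coding.

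Sarcomere genes held the highest shares of higher genes among the 35 lists. The sarcomere is the contractile unit of muscle, in which thick filaments of myosin slide along thin filaments of actin held at Z discs. Of 7 measured thick filament genes 6 were higher in C2 than in both and none lower, of 13 thin filament genes 8 were higher and 1 lower, and of 9 genes of the Z disc and M line 4 were higher and none lower, against 4.00% and 3.36% of all genes. The median log2 ratios to C1 and C5 were 1.47 and 1.17 for the thick filament, 1.16 and 1.17 for the thin filament and 1.19 and 0.97 for the Z disc and M line.

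In the thick filament, the myosin heavy chain gene Mhc (chromosome 2L, 16766566 to 16788766) stood at 2641 CPM in C2, 386 in C1 and 411 in C5, and at 496, 83.8 and 284 in the control, C3 and C4. The log2 ratio was 2.77 to C1 (interval 2.76 to 2.79) and 2.69 to C5 (2.67 to 2.70). C2 was thus far above 5 libraries and C3 far below the others. The light chain gene Mlc2 stood at 3946 CPM in C2, 752 in C1 and 1069 in C5, with 815 in the control, 169 in C3 and 714 in C4, the same order of C2 at the top and C3 at the bottom. Mlc1, Prm (paramyosin, the core of the thick filament), Mf and bt (projectin, a giant elastic kinase) were between 2.13-fold and 4.45-fold above C1 and C5. Strn-Mlck, the remaining thick filament gene, stood at 206 CPM in C2, below 290 in C1 and 253 in C5.

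In the thin filament, the larval muscle actin gene Act57B stood at 6763 CPM in C2, 1913 in C1 and 2046 in C5, and at 1666, 367 and 1355 in the control, C3 and C4. Tm2, a tropomyosin, stood at 1853 CPM in C2, 584 in C1 and 822 in C5, and up, which encodes troponin T, at 2113, 650 and 867. C2 exceeded all 5 other libraries for each of these 3 genes. The calcium-binding troponin C genes spread more widely. TpnC47D stood at 54.7 CPM in C2, 2.75 in C1, 5.37 in C5, 3.58 in the control, 0.382 in C3 and 4.80 in C4. TpnC25D stood at 33.4 CPM in C2, 4.69 in C1 and 8.77 in C5, while TpnC73F (1446, 765 and 1052) and TpnC41C (2.44, 1.39 and 1.33) did not reach 2-fold against both. Act88F, the actin of the adult flight muscle, went the other way, with 0.569 CPM in C2, 6.09 in C1 and 1.64 in C5. Reads of the near-identical actin genes, Act57B, Act87E, Act79B and Act88F among them, may have been shared between copies.

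At the Z disc and M line, Obsc, the giant M line kinase obscurin, stood at 124 CPM in C2, 25.6 in C1 and 31.6 in C5, and Mlp60A, a muscle LIM protein, at 638, 221 and 166. sls, the titin-like spring protein, stood at 1079, 400.5 and 490.4 CPM. Zasp66 (2735, 2289 and 2580) and Msp300 (732, 568 and 594) were close in the 3 libraries. Of 9 genes of excitation and energy supply 4 were higher and none lower, against 4.00% and 3.36% of all measured genes. Argk1, the arginine kinase that buffers ATP, stood at 3911 CPM in C2, 1193 in C1 and 1216 in C5, and RyR, the calcium release channel of the sarcoplasmic reticulum, at 38.4, 12.1 and 13.6. In bulk RNA of whole larvae, fewer cells of a type and less RNA per cell cannot be told apart.

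**Figure D2:**
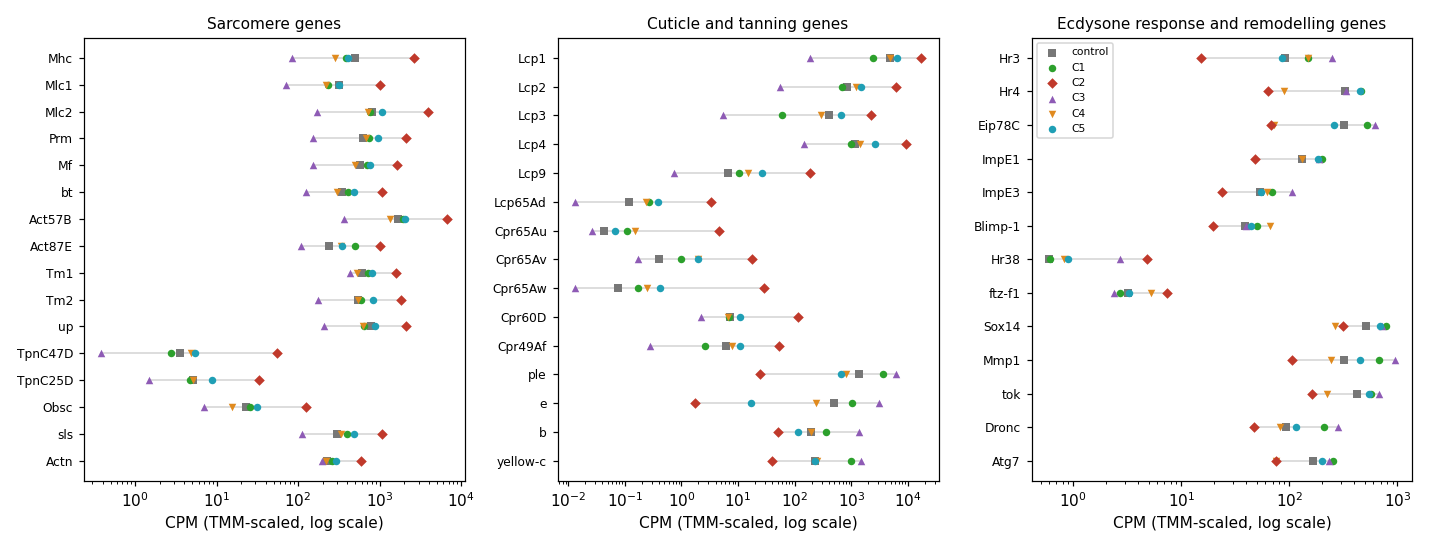
CPM in each of the 6 libraries (log scale) for genes of the sarcomere (left), of cuticle and tanning (middle) and of the ecdysone response and tissue remodelling (right). C2 (red diamonds) lies to the right of the other 5 libraries for every sarcomere gene shown, and to the left of them for ple, e, b, yellow-c, Hr3 and Hr4. C3 (purple triangles) is the leftmost library for all sarcomere genes shown. The sarcomere genes were picked from those higher in C2 than in both, so list members that missed the rule, and Act88F, are left out. Act79B and Mlp60A passed the rule as higher and are not shown either. Act79B was lowest in the control (0.554 CPM, with 0.816 in C3) and Mlp60A was lowest in C3 (69.5 CPM). Among those left out, Act88F and tmod were highest in C3 (9.28 and 509 CPM), while wupA (198) and Mlp84B (247) were lowest there.

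Of 15 genes of glycolysis and trehalose metabolism, 13 were above both C1 and C5 by any amount, against 41.6% of all measured genes. Of the 15, 3 were at least 2-fold above both, against 4.00% of all measured genes. The median log2 ratio was 1.35 to C1 and 0.91 to C5, and against C1 alone 11 of the 15 were at least 2-fold higher. Gapdh2, a glyceraldehyde phosphate dehydrogenase, stood at 1377 CPM in C2, 502 in C1 and 681 in C5, against 353 in the control, 355 in C3 and 402 in C4. Ald1, the aldolase, stood at 1442, 440.0 and 651 CPM and Pfk, the committing kinase of the pathway, at 209.8, 78.1 and 94.4. Pglym78 (449, 124 and 235), Tpi (539, 173 and 287) and Eno (1111, 435 and 598) did not reach 2-fold against C5. Treh, which breaks down trehalose, stood between C1 and C5 (130, 139 and 80.4), and Tps1, which makes it, above both (103, 49.4 and 54.7). Of 61 genes of oxidative phosphorylation, none was 2-fold apart from both, although 60 stood above both by any amount, against 41.6% of all measured genes (median log2 0.49 and 0.27).

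Cuticle protein genes were the largest group on the high side by number. These secreted proteins bind chitin and set how stiff the body wall is, and different members are used in different stages and body parts. The list held 125 genes, among them Cpr, the cytochrome P450 reductase gene, which is not a cuticle protein (95.2, 93.4 and 90.1 CPM). Of the list 47 were measured, Cpr included. Of those, 18 were higher in C2 than in both and 2 lower, against 4.00% and 3.36% of all measured genes. The median log2 ratios were 1.90 to C1 and 0.84 to C5. Against C1 alone 28 were higher and 4 lower. Against C5 alone 21 were higher and 4 lower. Of the 18 higher genes 6 (Cpr47Ec, Cpr64Aa, Cpr65Au, Cpr65Aw, Cpr67Fa2 and Lcp65Ad) had under 1 CPM in both C1 and C5 and were measured only through C2. Cpr100A (3.14, 0.518 and 1.03) and Cpr49Ah (7.77, 0.771 and 1.04), just over 1 CPM in C5, also reached the minimum only through C2. The share of higher genes on the list is thus in part set by the minimum.

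The larval cuticle genes Lcp1 to Lcp4 sit next to each other on chromosome 2R (8430115 to 8438495) and all 4 were higher in C2. Lcp1 stood at 17176 CPM in C2, 2375 in C1 and 6495 in C5, and at 4888 in the control, 184 in C3 and 4902 in C4. For Lcp3 the values were 2220 CPM in C2, 60.8 in C1 and 654 in C5, with 403, 5.41 and 287 in the control, C3 and C4, so C5 and C1 lay further apart than C2 and C5. Lcp4 stood at 9159, 983 and 2655 CPM in C2, C1 and C5, and Lcp2, which may share reads with Lcp1, at 6116, 675 and 1468. Lcp9, elsewhere on the genome, stood at 184 CPM in C2, 10.4 in C1, 26.2 in C5 and 0.737 in C3.

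A second group of neighbours on chromosome 3L (6123934 to 6144101) held l(3)mbn, Cpr65Au, Cpr65Av, Cpr65Aw and Lcp65Ad, and all 5 measured genes of that span were higher in C2. Cpr65Aw had 28.8 CPM in C2, 0.169 in C1 and 0.413 in C5, and at most 0.243 in the control, C3 and C4. It was 171-fold above C1 (log2 interval 6.67 to 8.29) and 69.8-fold above C5 (5.61 to 6.69). l(3)mbn stood at 50.04 CPM in C2, 4.87 in C1 and 5.12 in C5. Cpr65Av (17.6, 0.988 and 1.95), Cpr65Au (4.56, 0.108 and 0.0667) and Lcp65Ad (3.37, 0.265 and 0.387) followed the same order at lower levels. Cpr60D stood at 116 CPM in C2, 6.97 in C1 and 10.9 in C5, and Cpr49Af at 53.6, 2.63 and 10.9. The 2 lower members were Cpr47Ee (1.59, 10.6 and 5.83 CPM) and Cpr49Ag (12.0, 37.4 and 27.4), both of which were highest in C3 (35.9 and 61.7).

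Genes that build or shape chitin were divided. Of 29 measured, 3 were higher and 3 lower (10.3% each), against 4.00% and 3.36% of all measured genes. obst-E, a chitin-binding protein that shapes the larval cuticle, stood at 108 CPM in C2, 9.39 in C1 and 18.6 in C5, and obst-F at 27.9, 9.91 and 12.5. obst-J stood lower at 19.8, 60.8 and 61.8 CPM.

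Tanning hardens and darkens cuticle by oxidising catecholamines made from tyrosine. Of 18 measured genes 4 were lower and 1 higher, against 3.36% and 4.00% of all measured genes. The median log2 ratios were 0.13 and -0.15. By any amount 8 members stood above both and 8 below both, against 41.6% and 38.9% of all measured genes. ple, the tyrosine hydroxylase that opens the pathway (chromosome 3L, 6713356 to 6719525), stood at 24.2 CPM in C2, 3581 in C1 and 647 in C5, and at 1384, 6244 and 811 in the control, C3 and C4. C2 was the lowest of the 6 libraries, 26.8-fold below C5 and 148-fold below C1.

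e, which encodes ebony and couples beta-alanine to dopamine, stood at 1.74 CPM in C2, 1016 in C1 and 16.9 in C5, and at 486, 3073 and 237 in the control, C3 and C4. C2 and C5 both stood well below the other 4 libraries. b, which encodes the enzyme that makes beta-alanine, stood at 51.7 CPM in C2, 353 in C1 and 117 in C5, with 1371 in C3. yellow-c stood at 39.8, 984 and 225 CPM. Pu, the first enzyme of the cofactor that tyrosine hydroxylase needs, had log2 ratios of -1.60 to C1 and -0.95 to C5 and so missed the rule. Ddc, which makes dopamine, stood at 590 CPM in C2, 1010 in C1 and 845 in C5. The one higher member was yellow-d2 (302, 60.3 and 111).

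Of 22 measured ecdysone response genes 6 were lower than both, 2 were higher and 14 did not meet the rule. Over all measured genes 3.36% were lower and 4.00% higher. By any amount 16 of the 22 stood below both, against 38.9% of all measured genes, with median log2 ratios of -0.79 to C1 and -0.81 to C5. Hr3, the nuclear receptor that links the larval ecdysone pulse to the prepupal genes, stood at 15.3 CPM in C2, 150 in C1 and 84.7 in C5, and at 90.9, 249.9 and 148 in the control, C3 and C4. C2 was the lowest library, 5.54-fold below C5 and 9.79-fold below C1. Hr4, a receptor of the same cascade, stood at 63.2 CPM in C2, 463 in C1 and 452 in C5, with 330.2 in the control, 333 in C3 and 88.5 in C4. Here C4 lay nearer to C2 than to the rest.

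Eip78C, another ecdysone-induced receptor, stood at 67.8 CPM in C2, 522 in C1, 259 in C5 and 71.5 in C4. ImpE1 (48.0, 202 and 186) and ImpE3 (23.6, 68.9 and 54.7), first found as ecdysone-inducible genes of imaginal discs, and Blimp-1 (19.7, 49.9 and 44.0), a repressor that times the prepupal stage, completed the lower set. The early genes Eip74EF (325, 594 and 586 CPM) and Eip75B (311, 398 and 581) were below both without reaching 2-fold. br, an early gene that specifies pupal fate, stood at 1872, 2106 and 2562 CPM. The receptor gene EcR itself stood above both comparators, at 204 CPM in C2, 111 in C1 and 129 in C5. The 2 higher members were low in abundance, Hr38 at 4.80, 0.615 and 0.893 CPM and ftz-f1 at 7.41, 2.72 and 3.28. Hr38 was measured only through C2. The 10 measured genes of ecdysteroid synthesis and turnover held no member of either set (median log2 -0.41 and -0.04).

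The lists of genes of tissue remodelling at the end of larval life were picked after the values were seen, and their counts only describe. Of 10 genes of matrix proteases and epithelial remodelling 6 were lower and none higher, against 3.36% and 4.00% of all measured genes. Mmp1, a matrix metalloprotease, stood at 107 CPM in C2, 681 in C1 and 447 in C5, and at 321, 952 and 245 in the control, C3 and C4. tok, a protease of the bone morphogenetic protein 1 family, stood at 161, 575 and 547 CPM, and Sox14, a transcription factor of the ecdysone cascade, at 311, 783 and 694. Of 29 genes of cell death and autophagy 2 were lower (6.90%, against 3.36% of all measured genes) and 27 did not meet the rule. The 2 were the initiator caspase gene Dronc (47.3, 209 and 116 CPM) and Atg7 (74.5, 255 and 201). Of the 29, 20 stood below both by any amount, against 38.9% of all measured genes. Of 6 genes of the juvenile hormone binding protein family 3 were lower, among them Jhbp2 (30.8, 139 and 102), and none higher. The remaining 3 stood above both by any amount.

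Glue proteins are secreted late in the instar to fix the puparium, and the ng genes and Pig1 are expressed in the gland before most glue genes. Of 12 genes 4 were higher in C2 than in both, against 4.00% of all measured genes. Those were ng1, ng2, ng3 and Pig1, which lie together on the X chromosome (3236130 to 3249289, with CG14265, which was also higher). Of these 4, ng1 and ng2 had under 1 CPM in both C1 and C5 and were measured only through C2. ng3 stood at 177 CPM in C2, 28.0 in C1 and 12.0 in C5, and at 2.41, 0.0527 and 11.6 in the control, C3 and C4. ng1 stood at 9.46 CPM in C2, 0.0482 in C1 and 0.0800 in C5, which rest on 4 and 6 counts. The log2 interval of the ratio of ng1 ran from 6.25 to 9.50 against C1 and from 5.76 to 8.34 against C5.

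The Sgs glue genes did not meet the rule, and C5 was nearer to C2 than C1 was for each of them. Sgs3 stood at 11776 CPM in C2, 5958 in C1 and 11665 in C5, and Sgs7 at 16013, 7549 and 13464. Sgs4 (3735, 1556 and 2627) and Sgs5 (8406, 2720 and 5353) were at most 0.65 on the log2 scale above C5. Against C1 alone 9 of the 12 genes were at least 2-fold higher. Of the late Eig71E genes, 3 of 11 were measured in these libraries. Eig71Eg was lower in C2 (0.748, 1.58 and 2.44 CPM), and Eig71Ee, which is also on the glue list, stood between C1 and C5 at 2787 CPM.

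**Figure D3:**
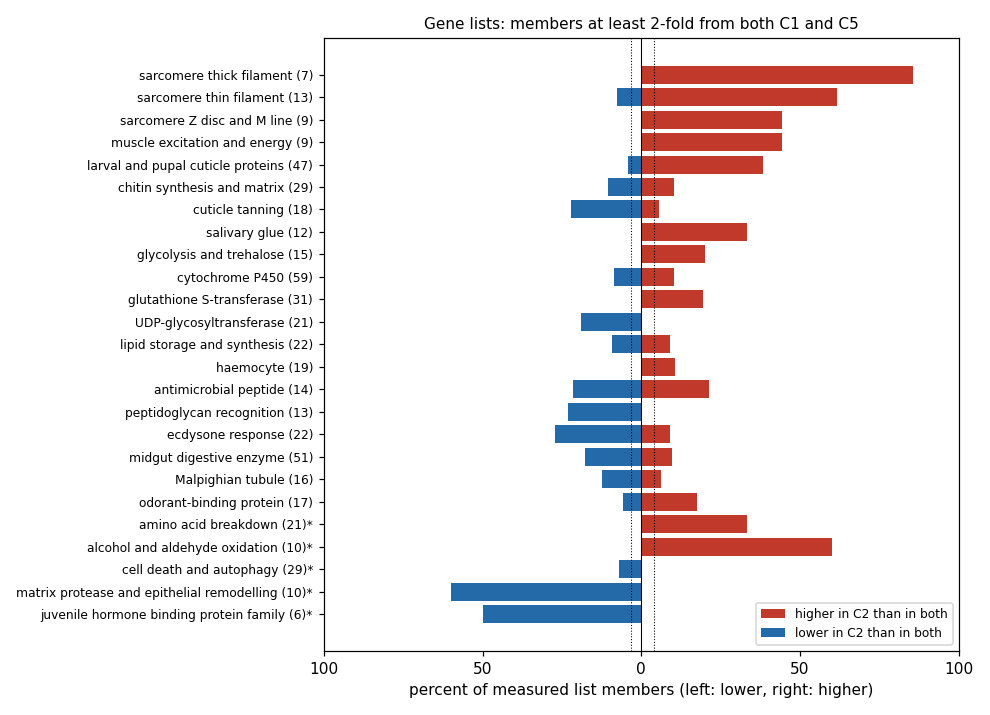
For each list with at least 5 measured genes and 2 members past the size rule, the percent of measured genes (number in parentheses) at least 2-fold higher (red, right) or lower (blue, left) in C2 than in both C1 and C5. Dotted lines mark 4.00% and 3.36%, the shares of all measured genes, and an asterisk marks lists chosen after the values were seen.

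Of 14 measured antimicrobial peptide genes 3 were lower and 3 higher, against 3.36% and 4.00% of all measured genes. Drsl5, a drosomycin-like peptide gene (chromosome 3L, 3316781 to 3317144), stood at 0.748 CPM in C2, 418 in C1 and 230.1 in C5, and at 1227, 872 and 798 in the control, C3 and C4. It was 308-fold below C5 (log2 interval -8.70 to -7.87) and 558-fold below C1, so the C2 library alone of the 6 nearly lacked this RNA. Its neighbour Drsl2 stood at 0.254 CPM in C2, 163 in C1 and 4.33 in C5, and Mtk, which encodes the antifungal peptide metchnikowin, at 3.07, 20.2 and 29.4. Drs, the drosomycin gene, stood at 98.9 CPM in C2, 129 in C1 and 200 in C5. The higher ones were Dro, the drosocin gene (19.7, 2.22 and 0.826 CPM, with 20.7 in C4), AttC (9.83, 4.09 and 4.68) and BomS6 (2.51, 0.325 and 0.893). BomS6 was measured only through C2.

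Peptidoglycan recognition proteins sense or cut bacterial cell wall. Of 13 genes 3 were lower and none higher, against 3.36% and 4.00% of all measured genes. PGRP-SB2 had 9 counts in C2 (0.135 CPM), with 241 CPM in C1 and 7.08 in C5, and 71.0, 2354 and 967 in the control, C3 and C4. C1 and C5 themselves differed widely for this gene. PGRP-SB1, an amidase that cleaves peptidoglycan, stood at 5.57, 61.9 and 55.1 CPM, and PGRP-LA at 22.7, 61.5 and 52.1. Of 19 haemocyte genes 2 were higher, atilla, a lamellocyte marker (27.9, 3.94 and 6.24 CPM), and Sr-CI, a scavenger receptor (18.2, 7.50 and 7.49). Hml stood at 92.3 CPM in C2, 42.6 in C1 and 70.6 in C5. The list medians were 0.21 and 0.04.

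Detoxification genes differed by family. Of 31 glutathione S-transferase genes 6 were higher and none lower, against 4.00% and 3.36% of all measured genes. Of the 6, 5 are GstE genes of the same stretch of chromosome 2R. GstE10, 1 of them, had under 1 CPM in both C1 and C5 and was measured only through C2. GstE2 (2.24, 1.05 and 0.587 CPM), under 1 CPM in C5 alone of the comparators, also reached the minimum only through C2. GstE3 stood at 857 CPM in C2, 304 in C1 and 185 in C5, and GstE7 at 101, 27.8 and 22.6. Of 21 UDP-glycosyltransferase genes 4 were lower (19.0%) and none higher, and 2 of the 4 had under 1 CPM in C2. The other 2 were Ugt37A3 (42.7, 200.5 and 158 CPM) and Ugt301D1 (137, 476 and 311). Of 59 cytochrome P450 genes 6 were higher (10.2%) and 5 lower (8.47%).

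Cyp4p2 led the higher genes averaging 5 CPM or more, ranked by the smaller of the 2 ratios, and passed that minimum only through C2. It had 4958 counts in C2 (74.2 CPM), 14 in C1 (0.169 CPM) and 11 in C5 (0.147 CPM), and stood at 0.282, 0.132 and 0.953 CPM in the control, C3 and C4. The fold was 440 against C1 (log2 interval 8.03 to 9.65) and 506 against C5 (8.14 to 9.99). Its neighbours on chromosome 2R (9237512 to 9244410), Cyp4p1 (38.9, 16.4 and 15.4 CPM) and Cyp4p3 (5.25, 1.72 and 1.25), were higher too, by far smaller folds. Cyp6a8 stood at 22.4, 3.10 and 1.77 CPM. The lower ones included Cyp4g1 (16.4, 86.6 and 55.9 CPM), which makes cuticular hydrocarbons in oenocytes, and Cyp6a14 (6.66, 16.4 and 29.2).

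The lists of amino acid breakdown and of alcohol oxidation were chosen after the values were seen. Of 21 genes of amino acid breakdown 7 were higher, none lower and 14 did not meet the rule. Over all measured genes 4.00% were higher and 3.36% lower. Tdh, 1 of the 7, had under 1 CPM in both C1 and C5 and was measured only through C2. Tat, tyrosine aminotransferase, which opens the breakdown of tyrosine, stood at 39.6 CPM in C2, 4.29 in C1 and 3.72 in C5, and at 1.29, 0.882 and 6.92 in the control, C3 and C4. Gnmt, glycine N-methyltransferase, stood at 175 CPM in C2, 47.1 in C1 and 2.11 in C5, and arg, arginase, at 14.3, 3.71 and 1.73. Of 10 genes of alcohol and aldehyde oxidation 6 were higher and none lower, with Adh, alcohol dehydrogenase, at 979, 400.2 and 412 CPM and Sodh2, a sorbitol dehydrogenase, at 107, 21.6 and 19.3. Aldh stood at 81.4 CPM in C2, 19.5 in C1 and 15.1 in C5 but at 112 in C4. Uro, the urate oxidase of Malpighian tubules, stood at 112 CPM in C2, 19.5 in C1 and 9.02 in C5, and at no more than 1.97 in the control, C3 and C4.

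Of 51 measured digestive enzyme genes 9 were lower and 5 higher, against 3.36% and 4.00% of all measured genes. The median log2 ratios were -0.28 to each comparator. Jon99Fii, a serine protease of the midgut that may share reads with Jon99Fi, stood at 35.7 CPM in C2, 134 in C1 and 162 in C5, and Jon99Ci at 11.4, 38.5 and 38.3. The maltase genes Mal-A7 (0.269, 8.03 and 2.57) and Mal-A8 (6.11, 36.2 and 24.6) and the amylase relative Amyrel (8.78, 31.1 and 21.7) were low as well. The higher ones included the trypsin gene epsilonTry (199, 52.2 and 67.4), the lysozyme gene LysP (42.5, 8.78 and 5.999) and the phosphatase gene Alp1 (310, 80.5 and 153). Of 16 Malpighian tubule genes Uro was higher and 2 were lower. The metallothionein genes MtnD (13.1, 75.1 and 70.8) and MtnE (11.7, 49.1 and 35.6), which bind copper, were those 2. Lip3, a lipase gene, was lower at 2.80, 12.4 and 14.2 CPM, and the fatty acid synthase genes FASN1 (207, 94.6 and 96.0) and FASN2 (7.63, 0.566 and 0.893) were higher. FASN2 was measured only through C2.

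The odorant-binding protein genes Obp56a (51.6, 20.6 and 12.7 CPM), Obp56b and Obp83g were higher and Obp56c lower, of 17 measured. Over all measured genes 4.00% were higher and 3.36% lower. Several groups held few or no genes of either set. None of 86 cytosolic ribosomal protein genes, 39 cell cycle and replication genes, 18 neuron and glia genes, 23 imaginal disc patterning genes or 9 fat body storage genes was at least 2-fold from both, against 7.36% of all measured genes. By any amount, however, 79 of the 86 ribosomal protein genes stood above both and 2 below both. Over all measured genes these shares were 41.6% and 38.9%. The ribosomal protein medians were 0.34 to C1 and 0.12 to C5 on the log2 scale. Lsp1beta, which encodes a storage protein of the fat body, had the largest smaller ratio of the storage genes, with 28356 CPM in C2, 14551 in C1 and 15758 in C5. Of 15 heat shock genes only Hsf, the factor that activates them, was higher (166, 54.4 and 53.3 CPM), with 52.1, 62.4 and 59.5 in the control, C3 and C4.

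The remaining genes with the largest ratios were mainly uncharacterised. On the high side, CG32198 stood at 686 CPM in C2, 26.6 in C1 and 7.86 in C5, and at 5.72, 0.263 and 19.0 in the control, C3 and C4. CG11300 stood at 561 CPM in C2, 24.5 in C1 and 14.1 in C5, nol at 142, 2.59 and 0.960, and CG43117 at 175, 7.36 and 2.28. CG14143, CG34278, CG32241, CG17107, CG8087, CG9757, Jig, CG14852 and CG17362 completed the first 15 with Cyp4p2 and Cpr65Aw. For all 15, C2 was the highest of the 6 libraries, which is in part set by how they were chosen. All but CG11300 and CG32198 reached the minimum of 5 CPM only through C2. Jig and CG43117 did so although each exceeded 5 CPM in C1.

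On the low side, CG14664 stood at 0.195 CPM in C2, 347 in C1 and 128 in C5, and at 226, 602 and 20.4 in the control, C3 and C4. CG34193 stood at 0.329, 557 and 63.2 CPM, and CG9822 at 0.344, 261 and 184, with 1.03 in C4. The noncoding RNA gene lncRNA:CR33948 had 2 counts in C2 against 6796 in C1 and 1175 in C5. Its log2 ratio, taken with 3 counts in C2, had intervals of -13.1 to -9.29 and of -10.7 to -6.90. Muc68E, a mucin gene, stood at 1.62 CPM in C2, 386 in C1 and 122 in C5, and santa-maria, a scavenger receptor gene of carotenoid uptake, at 16.5, 378 and 362. CG34206, CG12951, CG11912, CG12057 and CG14687 completed the first 15 with ple, Drsl5, Drsl2 and PGRP-SB2. For all 15, C2 was the lowest of the 6 libraries, which is likewise in part set by the choice.

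**Figure D4:**
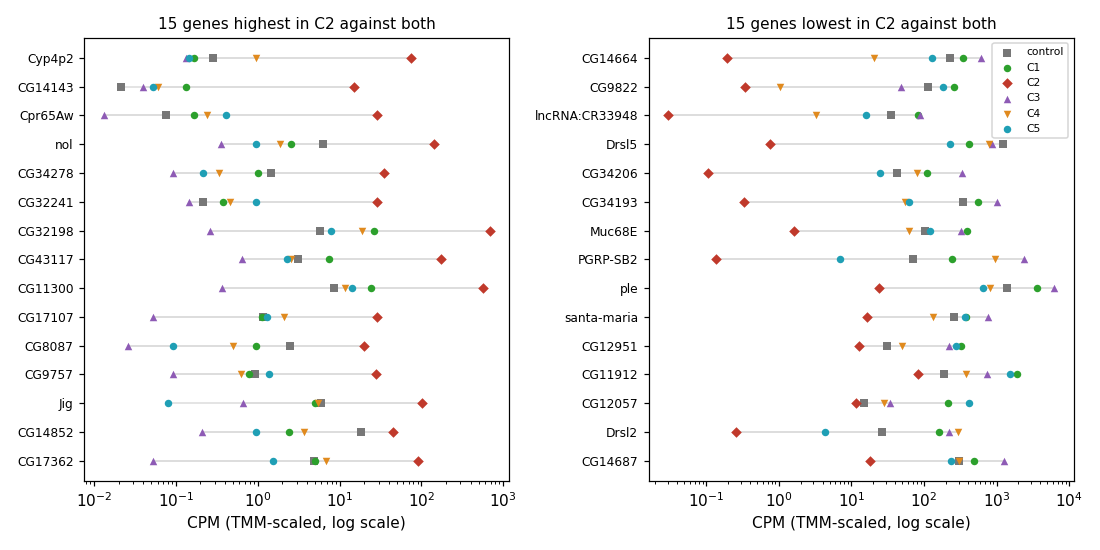
CPM in each library (log scale) for the 15 genes with the largest smaller ratio on each side, counting genes that averaged 5 CPM or more in C1, C2 and C5. C2 (red diamonds) lies at the right end for every gene of the left panel and at the left end for every gene of the right panel, and C1 and C5 lie apart from each other for several, such as PGRP-SB2 and Jig. The genes were picked by their C2 ratios, so the place of C2 against C1 and C5 follows from the choice. Most genes of the left panel reached the minimum of 5 CPM only through C2.

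Some of the genes lay side by side. Joining genes no more than 10000 bases apart gave 21 groups of at least 3 higher genes, with 81 of the 399, and 7 groups of lower genes, with 23 of the 335. The largest higher group had 6 genes and no group spanned a gene of the opposite set. Besides the groups above, 5 uncharacterised genes on chromosome 2L (10681030 to 10689271) made up a group in which all 5 measured genes were higher, CG7296 (477 CPM in C2, 48.0 in C1 and 43.4 in C5) the most abundant. Prx6c (28.8, 4.99 and 3.27 CPM) and Prx6b (23.7, 5.11 and 3.29), which encode peroxiredoxins, lay beside CG12896. Among the lower groups, CG33306, CG8997, CG7916 and CG7953 lay together on chromosome 2L (13842888 to 13849223), and CG8997 stood at 136 CPM in C2, 704 in C1 and 796 in C5. No comparison with other gene sets was made for these groups. The spans of 231 of the 734 genes overlap another measured gene, and whether the counting used strand is not stated, so reads of such pairs may not be separable.

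The control, C3 and C4 did not enter the rule, but the C2 value did, so where C2 stands among the 6 libraries is in part set by the choice of the genes and is given as a description. C2 was the highest of all 6 libraries for 359 of the 399 higher genes, against 26.2% of all measured genes, and at least 2-fold above each of the other 5 for 308. Among the 335 lower genes C2 was the lowest of the 6 for 254, against 17.2% of all measured genes, and at least 2-fold below each of the other 5 for 105. C2 was at least 2-fold below C4 for 133 of the 335 and at least 2-fold below C3 for 266, against 8.20% and 8.21% of all measured genes. Against the control, C2 was at least 2-fold higher for 352 of the 399 and at least 2-fold lower for 214 of the 335, against 10.9% and 6.69% of all measured genes.

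C3 tended to the opposite end. It was the lowest of the 6 libraries for 275 of the 399 higher genes (68.9%), against 19.6% of all measured genes, and the highest for 156 of the 335 lower genes (46.6%), against 24.5%. By the rule C2 cannot be lowest for a higher gene or highest for a lower gene. These ranks are thus in part set by the choice, and the shares of all genes are not a like background. The ratio of C3 to the control uses neither C2 nor its comparators. Of the 399 higher genes, 199 (49.9%) were at least 2-fold lower in C3 than in the control and 32 (8.02%) at least 2-fold higher, against 9.31% and 6.76% of all measured genes. The median log2 ratio was -0.98 (quartiles -2.25 and -0.06). Of the 335 lower genes 125 (37.3%) were at least 2-fold higher in C3 than in the control and 32 (9.55%) lower, with a median of 0.74 (0.10 and 1.40). Over all measured genes the median was 0.07.

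C4 leaned the same way as C2, by less. Of the higher genes 76 (19.0%) were at least 2-fold higher in C4 than in the control and 25 (6.27%) lower, against 3.77% and 3.69% of all measured genes, with a median log2 ratio of 0.35. Of the 335, 88 (26.3%) were at least 2-fold lower in C4 than in the control and 32 (9.55%) were at least 2-fold higher, and the median was -0.41. By list, the median log2 ratio of C3 to the control was -2.04 for the thick filament, -1.42 for the thin filament and -0.67 for cuticle proteins, and that of C4 was -0.22, -0.00424 and 0.40. The 9 testis markers summed to 9.36 CPM in C3, far below the control and C4, and the part of testis RNA in these ratios was not tested.

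**Figure D5:**
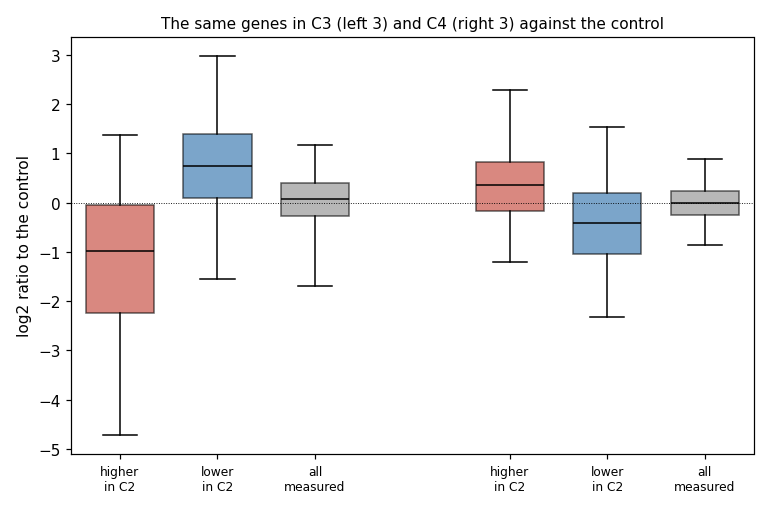
Log2 ratio of C3 (left 3 boxes) and of C4 (right 3 boxes) to the control for the 399 genes higher in C2, the 335 lower in C2 and all 9970 measured genes. Boxes span the quartiles with the median as a line and whiskers reach the 5th and 95th percentiles, and the C3 medians lie at -0.98, 0.74 and 0.07.

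Set against the same pair of comparators, C3 had 227 genes at least 2-fold higher than both (2.29% of 9920) and 666 lower (6.71%), against 399 and 335 in C2. Both counts share C1 and C5.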

How the data were processed

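The authors deposited, for each of the 6 libraries, a table of 34966 RefSeq transcripts with expected counts (estimated reads, not whole numbers) and RPKM values. Libraries were stranded, depleted of ribosomal RNA and read as paired ends, per the labels. Of tools, bcl2fastq, TopHat and Partek are listed with build dm6 in the submitters' processing notes, without roles. The RPKM values deposited by the authors were used only to check that they rank transcripts as the counts do.

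RefSeq's gene table (assembly Release 6 plus ISO1 MT, equivalent to dm6) assigned transcripts to genes and gave the coordinates. Of them 33027 (94.5%) matched a gene. Unmatched transcripts held 0.0796% to 0.136% of the counts. Expected counts were summed per gene, rounded, and scaled with TMM factors over the 6 libraries (edgeR 4.0.16, R 4.3.3). The factors were 0.955 in C1, 0.890 in C2 and 0.904 in C5. A library with fewer than 3 counts was set to 3 for ratios. Intervals are exact 95% Clopper-Pearson intervals of the ratio of 2 counts (scipy 1.17.1). They cover counting error only.

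With 1 library per genotype, and with comparators chosen from the data, no p-value was computed. The genes and the 35 gene lists were chosen with earlier results of these data known, and 5 more lists were added after the values were seen. Named genes are the 15 with the largest smaller ratio in each direction among genes averaging 5 CPM or more, up to 5 members per list and direction, and the genes at the edge of the rule. Other genes named, those that missed the rule among them, were picked with their values in view. The alternatives tried were size factors of DESeq2 1.42.0, TMM over 3 libraries, plain CPM, other minimum levels, other folds, transcripts in place of genes, and each comparator alone.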

Additional observations from a re-analysis of the deposited data

How the results depend on the processing

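The counts of 399 higher and 335 lower genes changed little with 2 of the 3 other scalings and more with plain CPM. DESeq2 size factors gave 409 and 325, TMM over C1, C2 and C5 alone 388 and 332, and plain CPM 346 and 360. Under plain CPM the lower genes thus outnumbered the higher ones. Plain CPM moved the median log2 ratio of C2 to C1 over all genes from 0.02 to -0.09. Requiring intervals beyond 2-fold gave 313 and 266. No minimum level gave 771 higher genes, a minimum mean of 5 CPM gave 256, and transcripts as deposited gave 1156 higher and 1545 lower of 20814. A fold of 1.5 gave 825 and 755, and a fold of 4 gave 114 and 80. With a single comparator the higher genes numbered 575 (C5) to 611 (C1) and the lower 439 (C5) to 601 (C1). Of the named genes, Actn, Alp1, Gapdh2 and GstE2 fell below 2-fold with plain CPM (log2 0.98, 0.9958, 0.99 and 0.9969), and Actn also with TMM over 3 libraries (0.99). None of the named genes turned in direction under the 3 scalings. The Eig71E medians turned positive with other minimum levels, to 0.27 against C1 (mean of at least 5 CPM, 1 gene, or at least 1 CPM over 6 libraries, 9 genes) and 0.17 against C5 (the latter minimum). No paired analysis was possible because each genotype had 1 library. Genes with few counts in a library, such as PGRP-SB2 and ng1, have wide intervals.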
